A study of Mus musculus with 6 samples.

Results

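The miRNAs described here are the mouse entries numbered 5000 or above that the array's detection flag called present on both arrays of at least 1 group. They number 58 of the 177 entries with such numbers on the array (32.8%) and of 1247 mouse miRNA entries in all. Among entries numbered below 1000, 324 of 778 (41.6%) met the same criterion. Of the 58, 44 were detected on all 6 arrays and 14 on fewer. Another 114 entries numbered 5000 or above were detected on no array, and 5 were detected on arrays but on both of no group. The entries were chosen by their number and by the measured detection flags, so detection and level are given as a description.

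Total RNA came from 3 cultures of a C57 mouse line, with 2 single-colour (Cy3) Agilent miRNA arrays each. Embryonic stem cells (mESCs) were kept undifferentiated for 16 h under normoxia with leukaemia inhibitory factor (LIF) on mitomycin C-treated embryonic fibroblast feeders. Embryoid bodies (EBs), aggregates in which such cells start to differentiate, were made as hanging drops with neither LIF nor feeders and kept for 16 h under normoxia, or for 16 h under hypoxia. There was no hypoxic mESC group, the oxygen level is not given in the sources used here, and medium and feeders changed together with cell state. The labels do not state whether the RNA of a group came from separate cultures, so the p-values measure only the spread between these arrays. In such bulk samples, fewer cells of a type and less RNA per cell cannot be told apart. Per the file names, the mESC arrays lay in another row of the slide than the EB arrays, so that a row effect and an effect of cell state cannot be told apart.

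A miRNA is a short RNA cut from a hairpin precursor and loaded into an Argonaute protein, and bases 2 to 8 of it, the seed, pair with target messages. Registry numbers are given out in order of submission, so low numbers hold the well-studied families, while high numbers come largely from deep sequencing of small RNA. Some late entries, such as miR-5109 and miR-6240, are thought to be fragments of ribosomal RNA (rRNA) or transfer RNA (tRNA), which are abundant in every cell. That origin was not checked here against rRNA or tRNA sequences. For most of the high-numbered entries no targets or roles are established well enough to state here, and they are therefore ordered below by this proposed origin, by brightness and by change.

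RefSeq (GRCm38.p6) held a mature sequence for 44 of the 58 entries (75.9%). The sequences below are those of the entries thought to come from rRNA or tRNA, of the brightest entries, and of those whose signal differed most between groups. The seed is in capitals.
miR-6236: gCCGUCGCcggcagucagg
miR-6238: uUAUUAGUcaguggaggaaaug
miR-6239: uAGCGUUGgaucacucggug
miR-6240: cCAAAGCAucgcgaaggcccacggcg
miR-6366: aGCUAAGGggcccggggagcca
miR-5100: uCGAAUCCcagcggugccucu
miR-5126: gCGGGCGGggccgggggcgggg
miR-6538: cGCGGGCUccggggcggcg
miR-6348: uCAGCCUUuauaaggugugugu
miR-6401: uUACACUCcaguggugucgggu
miR-6391: uGAGGCACgggaggacaaugu
miR-5128: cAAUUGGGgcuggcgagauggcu
miR-6351: uAGCGUUGcucagggagcacaug
miR-6349: uGGAAUGUgggaggggcaugcg
miR-6354: uGCCCUGGggaucaggucucu
miR-5621-5p: aGGAGGUCcuggggccgcccuga
miR-5622-3p: cUUAGCUGgguagugguggugc
miR-6394: uCCCUGAGuggggccaggucu
miR-6405: gUGGGAAGcagugggaagcagug
miR-6368: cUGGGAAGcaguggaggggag
miR-6412: uCGAAACCauccucagcuacua

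The 44 sequences carried 42 distinct seeds, so hardly any shared one with another. They lay on 16 chromosomes, with at most 6 on any one. In the RefSeq annotation 35 of the 44 lay within the bounds of another gene on either strand, which was protein-coding for 29, and 9 lay within none. Among the entries that moved most, miR-5622-3p (chr2:152865105-152865126, plus strand) lay in Tpx2, which encodes a spindle assembly factor. The entry miR-6391 (chr14:118592376-118592396, minus strand) lay in Abcc4, which encodes an efflux transporter. The entry miR-6394 (chr7:96305740-96305760, plus strand) lay in Tenm4, which encodes a teneurin, a cell adhesion protein, and miR-6405 (chr19:44808501-44808523, plus strand) lay in Pax2, which encodes a transcription factor of the developing kidney and eye. The entry miR-6348 (chr1:168490740-168490761, plus strand) lay in Gm39696, and the brightest, miR-6366 (chr16:18165093-18165114, minus strand), lay in no other annotated gene.

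The arrays differed in brightness and in the number of entries detected. Between 408 and 495 mouse miRNAs were detected per array, and 46 to 58 of them were entries described here, with 46 per mESC array, 49 and 56 per normoxic EB array and 58 per hypoxic EB array. All 6 arrays detected 391 miRNAs, whose 75th percentile of signal was 137 and 140 per mESC array, 222 and 237 per normoxic EB array, and 219 and 175 per hypoxic EB array. Each array was scaled to that percentile, and the scaled signal, in array units, is the value given below. The number of arrays limits the precision. Of an 11-member list of miRNAs typical of embryonic stem cells (the miR-290 and miR-302 clusters), 9 were on the array by name and all 9 were detected on every array. Of 7 fibroblast miRNAs, 0 were detected on the mESC arrays and 1 to 3 on the EB arrays, with a summed unscaled signal of at most 19.0, and miR-143-3p, miR-199a-5p, miR-10b-5p and miR-152-3p were detected nowhere. Of 5 blood-cell miRNAs 2 or 3 were detected, with summed unscaled signals of 51.7 to 55.7 in mESCs, 214 to 218 in normoxic EBs and 128 to 157 in hypoxic EBs, and without miR-223-3p or miR-451a on any array; their part in the results was not tested.

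Of the 7 entries of the list thought to come from rRNA or tRNA, the 6 detected on all arrays were brightest in hypoxic EBs by group mean, and miR-6239 was chosen through its detection there. The entry miR-5109 had mESC signals of 14095 and 13875, normoxic EB signals of 20643 and 19688, and hypoxic EB signals of 25458 and 28959. The 3 groups did not overlap, and the signal rose 1.44-fold from mESCs to normoxic EBs (95% CI 1.25 to 1.67, adjusted p = 0.00687) and 1.35-fold from normoxic to hypoxic EBs (95% CI 1.17 to 1.56, adjusted p = 0.0148). From mESCs to hypoxic EBs the change was 1.94-fold (95% CI 1.68 to 2.24, adjusted p = 0.000941). These calls were lost under quantile normalization, which gives equal ranks on different arrays equal values: the log2 changes were then 0, 0.28 and 0.28. The call between the EB groups was also lost without scaling and without either normoxic EB array.

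The entry miR-6240 had mESC signals of 81.8 and 82.8, normoxic EB signals of 96.4 and 97.9, and hypoxic EB signals of 140 and 160. It was 1.54-fold higher in hypoxic than in normoxic EBs (95% CI 1.34 to 1.77, adjusted p = 0.00768), while the 1.18-fold difference between normoxic EBs and mESCs did not pass the threshold (95% CI 1.02 to 1.36, adjusted p = 0.0578). The entry miR-5105 read 739 and 759, then 801 and 792, then 1035 and 1214 in the same order of groups. Its mESC and normoxic EB values lay close together and its hypoxic EB values stood above both, by 1.41-fold over normoxic EBs (95% CI 1.19 to 1.66, adjusted p = 0.0145), a call lost without scaling and without either normoxic EB array.

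The entry miR-6238 moved in opposite directions in the 2 steps. It had mESC signals of 23.7 and 21.8, normoxic EB signals of 16.7 and 17.1, and hypoxic EB signals of 31.8 and 32.6, and no groups overlapped. It was 1.34-fold lower in normoxic EBs than in mESCs (95% CI 1.2 to 1.5, adjusted p = 0.00594), a direction that turned without scaling, and 1.90-fold higher in hypoxic than in normoxic EBs (95% CI 1.71 to 2.12, adjusted p = 0.00601), a call that held under every alternative.

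The entry miR-5115 had mESC signals of 19.5 and 19.6, normoxic EB signals of 27.9 and 29.7, and hypoxic EB signals of 28.6 and 33.6. The mESC arrays were lowest and the 2 EB groups overlapped: the signal was 1.47-fold higher in normoxic EBs than in mESCs (95% CI 1.24 to 1.75, adjusted p = 0.0102), a call lost without mESC array 1 or normoxic EB array 2. The entry miR-6236 had mESC signals of 6.98 and 12.3, normoxic EB signals of 12.3 and 13.4, and hypoxic EB signals of 17.5 and 18.8. Its mESC arrays differed from each other, and only the change from mESCs to hypoxic EBs passed the threshold, at 1.96-fold (95% CI 1.16 to 3.30, adjusted p = 0.0314), which was lost without any 1 of the 4 EB arrays. The entry miR-6239 was detected on neither mESC array, on 1 normoxic EB array at 4.24, and on both hypoxic EB arrays at 5.80 and 5.96, close to the lowest detected signals. Of the 6 listed entries detected on all arrays, 6 were higher in hypoxic EBs than in mESCs and 4 were higher in hypoxic than in normoxic EBs, with median log2 changes of 0.76 and 0.50. Over all 391 miRNAs detected on all arrays, 38.1% were higher in hypoxic EBs than in mESCs and 34.3% higher in hypoxic than in normoxic EBs, by the same limma test at an adjusted p of 0.05. For the other 38 high-numbered entries detected on all arrays these shares were 65.8% and 57.9%, with medians of 0.51 and 0.42.

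**Figure D1:**
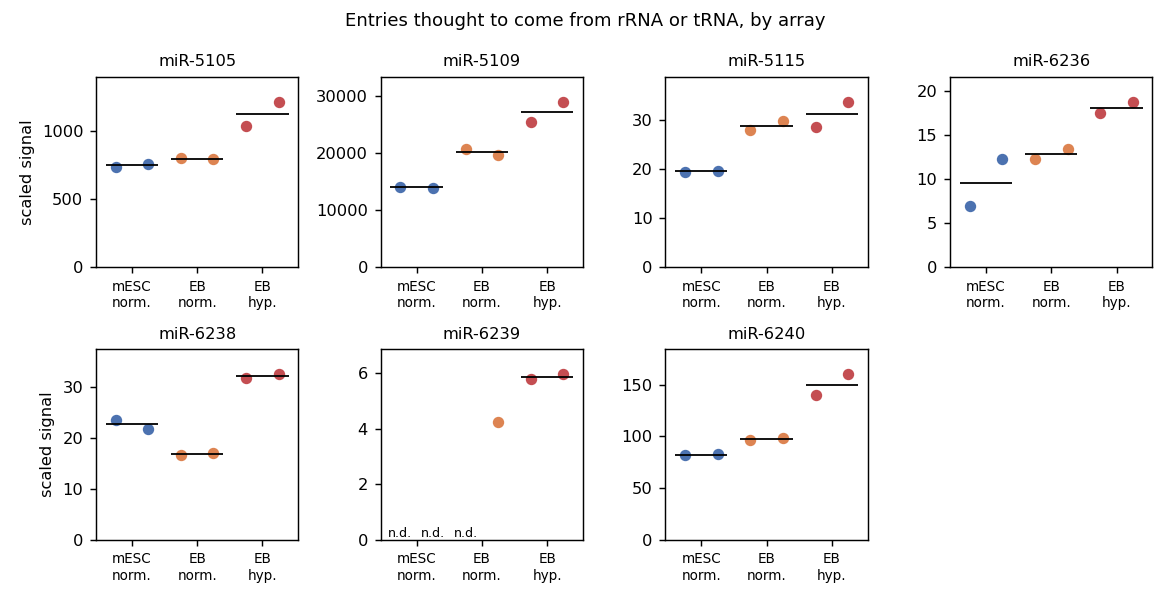
Scaled signal in array units (vertical axes, each starting at 0) of the 7 entries thought to come from rRNA or tRNA, by group. Points are arrays, lines are group means over 2 arrays, n.d. marks arrays without detection, and the hypoxic EB points are highest in every panel except that miR-5115 overlaps with normoxic EBs.

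Among the other entries, 8 belonged with miR-5109 and miR-5105 to the 10 brightest. The brightest, miR-6366, had mESC signals of 155440 and 154680, normoxic EB signals of 131250 and 125650, and hypoxic EB signals of 106190 and 130130. The mESC arrays were highest, and the 2 EB groups overlapped. The signal was 1.32-fold lower in hypoxic EBs than in mESCs (95% CI 1.08 to 1.61, adjusted p = 0.0259), but without scaling the log2 change was 0.10 in the other direction, and the call was lost without any 1 of the mESC or normoxic EB arrays.

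The entry miR-5126 had mESC signals of 9716 and 10148, normoxic EB signals of 12304 and 11987, and hypoxic EB signals of 12839 and 15518. It was 1.42-fold higher in hypoxic EBs than in mESCs (95% CI 1.17 to 1.72, adjusted p = 0.0107), a call lost without mESC array 1. The entry miR-5097 went the other way, from 10751 and 10656 in mESCs through 9758 and 9456 in normoxic EBs to 6896 and 8490 in hypoxic EBs. Its signal was 1.40-fold lower in hypoxic EBs than in mESCs (95% CI 1.14 to 1.71, adjusted p = 0.0151), lost without either mESC array and under scaling to the array's hur control features, and absent without scaling, where the log2 change was 0.01. The entry miR-5100 read 12965 and 13235, 15587 and 15663, and 11357 and 14163 in the same order, and passed the threshold in no comparison. Its calls depended on the processing. Without scaling it was higher in hypoxic EBs than in mESCs by a log2 change of 0.45 (adjusted p = 0.00845). Under quantile normalization it was lower, at -0.27 (adjusted p = 0.000279). Between normoxic and hypoxic EBs the log2 change was -0.53 without scaling (adjusted p = 0.0315) and -0.27 under quantile normalization (adjusted p = 0.00128).

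The entry miR-6243 had mESC signals of 3173 and 3145, normoxic EB signals of 2622 and 2668, and hypoxic EB signals of 3652 and 4178. It was lowest in normoxic EBs: 1.48-fold higher in hypoxic EBs (95% CI 1.28 to 1.70, adjusted p = 0.00944) and 1.19-fold lower than in mESCs (95% CI 1.04 to 1.38, adjusted p = 0.0494), of which the second turned to a log2 change of 0.47 without scaling and was lost without any 1 of the mESC or normoxic EB arrays. The entry miR-6378 read 950 and 998, then 1282 and 1271, then 1705 and 1836. It stepped up from group to group with no overlap, 1.31-fold (95% CI 1.17 to 1.46, adjusted p = 0.00733) and then 1.39-fold (95% CI 1.24 to 1.55, adjusted p = 0.00802), of which the first was lost without mESC array 1 and the second without scaling. The entry miR-6538 read 648 and 678, then 808 and 804, then 1026 and 1215, and was 1.68-fold higher in hypoxic EBs than in mESCs (95% CI 1.42 to 2.00, adjusted p = 0.0026). The entry miR-6368 read 690 and 733, then 763 and 765, then 698 and 826, with no difference past the threshold.

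**Figure D2:**
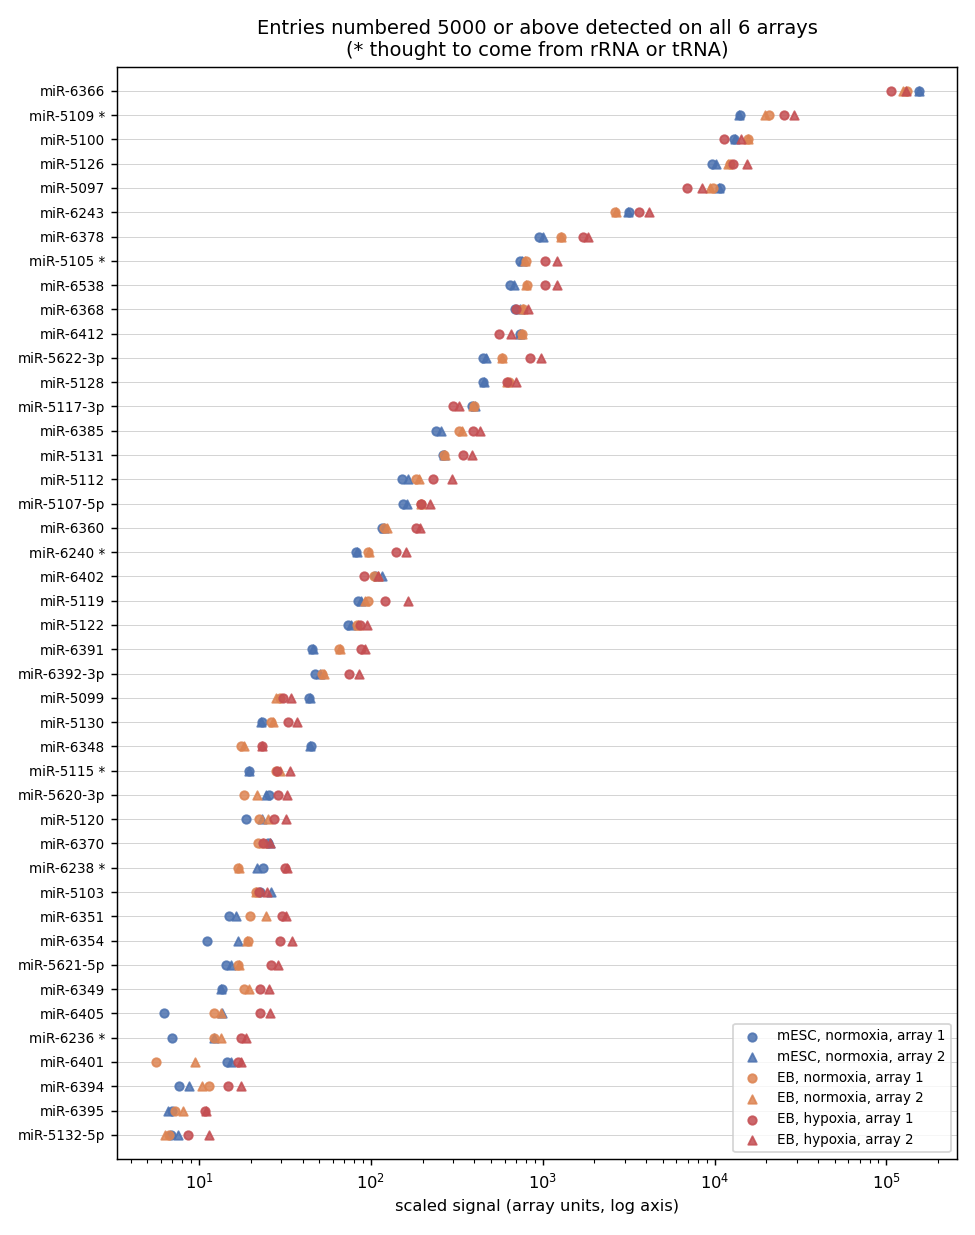
Scaled signal (horizontal log axis, array units) of the 44 entries detected on all 6 arrays, ordered by mean log2 signal, with a point for each array coloured by group. The hypoxic EB points lie right of the other 4 arrays for 31 entries and left of them for 3, miR-5097, miR-5117-3p and miR-6412, where 38.6% of all 391 miRNAs lie above and 32% below.

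Normoxic EBs were compared with mESCs first, the step of early differentiation without LIF and feeders. Of the 44 entries detected on all 6 arrays, 11 were higher in normoxic EBs and 5 lower, where over all 391 miRNAs detected on all arrays 22.8% were higher and 29.7% lower, and their median log2 change was 0.18 against 0.01. For 39 of the 44 the 2 groups had no overlapping values, where this held for 85.2% of all 391 miRNAs. The largest fall was that of miR-6348, which had mESC signals of 44.8 and 44.4, normoxic EB signals of 17.5 and 18.4, and hypoxic EB signals of 23.3 and 23.3. It was lower in both EB groups than in mESCs, 2.48-fold in normoxic EBs (95% CI 2.28 to 2.71, adjusted p = 0.000348), a call kept in every alternative.

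The entry miR-6401 had mESC signals of 14.5 and 15.3, normoxic EB signals of 5.59 and 9.49, and hypoxic EB signals of 16.9 and 17.4. Its normoxic EB arrays were lowest and differed most from each other, and the 2.05-fold fall (95% CI 1.26 to 3.33, adjusted p = 0.0324) was lost without scaling and without any 1 of the mESC or hypoxic EB arrays. The entry miR-5099 read 43.6 and 44, then 29.7 and 28.2, then 30.9 and 34.2, a fall of 1.51-fold to normoxic EBs (95% CI 1.33 to 1.72, adjusted p = 0.00357) that turned to a log2 change of 0.13 without scaling.

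Among the rises, miR-6391 had mESC signals of 45.6 and 45.9, normoxic EB signals of 65.3 and 66.2, and hypoxic EB signals of 87.1 and 92.3. The groups did not overlap, and the first step was 1.44-fold (95% CI 1.31 to 1.58, adjusted p = 0.00209) and was kept in every alternative. The entry miR-5128 read 451 and 453, then 637 and 616, then 623 and 699, so that the EB groups lay together above mESCs, with normoxic EBs 1.39-fold higher than mESCs (95% CI 1.22 to 1.58, adjusted p = 0.00712). The other large rises were those of miR-5115 and miR-5109, given above, and of miR-6351 and miR-6349. The entry miR-6351 read 15 and 16.4, then 19.7 and 24.5, then 30.5 and 32.0, and the entry miR-6349 read 13.7 and 13.4, then 18.2 and 19.5, then 22.7 and 25.6. Both stepped up from group to group without overlap, and their first steps, 1.40-fold and 1.39-fold (adjusted p = 0.0331 and 0.00959), were lost without either mESC array or without normoxic EB array 2, and that of miR-6351 also without either hypoxic EB array and under quantile normalization.

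The count of entries that rose in this comparison depended on the scaling and on single arrays. It was 20 with 5 lower under median scaling, 23 with 5 lower under hur scaling and 39 with 1 lower without scaling, where the median over all 391 miRNAs itself was 0.73. It fell to 3 without mESC array 1 and to 4 without normoxic EB array 2, and the lower entries numbered 3 without either mESC array. With every undetected miRNA kept in the fit, 1 was higher and 3 lower.

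Hypoxic EBs were compared with normoxic EBs next, which asks what 16 h of hypoxia changed in EBs. Of the 44 entries, 26 were higher in hypoxic EBs and 2 lower, where over all 391 miRNAs 34.3% were higher and 28.1% lower, and the median log2 change was 0.44 against 0.09. For 38 of the 44 the 2 groups had no overlapping values, where this held for 88% of all 391 miRNAs. The largest rise was that of miR-6401, given above, at 2.36-fold (95% CI 1.45 to 3.83, adjusted p = 0.0198), which was lost without scaling and without either hypoxic EB array. It was followed by miR-6238, given above.

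The entry miR-5621-5p had mESC signals of 14.3 and 15.4, normoxic EB signals of 16.8 and 17, and hypoxic EB signals of 26.2 and 28.6. The hypoxic EB arrays stood apart from the other 4, 1.62-fold above normoxic EBs (95% CI 1.43 to 1.85, adjusted p = 0.00694). The entry miR-5622-3p read 450 and 469, then 581 and 580, then 848 and 977, and its change from normoxic to hypoxic EBs was 1.57-fold (95% CI 1.35 to 1.83, adjusted p = 0.00802). The entry miR-6360 read 116 and 119, then 120 and 123, then 183 and 192, flat over the first 2 groups and 1.54-fold higher in hypoxic than in normoxic EBs (95% CI 1.41 to 1.69, adjusted p = 0.00694), lost without scaling. The entry miR-6354 read 11.1 and 16.9, then 19.3 and 19.1, then 29.7 and 34.5, and its 1.67-fold change (95% CI 1.11 to 2.5, adjusted p = 0.0444) was lost without any 1 of the 4 EB arrays.

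Only miR-5117-3p and miR-6412 among the 44 were lower in hypoxic than in normoxic EBs in this fit. The entry miR-5117-3p read 389 and 406, then 398 and 391, then 300 and 325, a fall of 1.26-fold (95% CI 1.13 to 1.41, adjusted p = 0.0143). The entry miR-6412 read 735 and 734, then 754 and 757, then 558 and 655, a fall of 1.25-fold (95% CI 1.06 to 1.47, adjusted p = 0.0353). Both were level between mESCs and normoxic EBs, and both falls were lost under hur scaling and without normoxic EB array 1, that of miR-6412 also without either mESC array or normoxic EB array 2.

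Here too the count depended on the scaling and the filter, and the median on single arrays. There were 20 higher and 5 lower entries under quantile normalization, against 96 and 121 of all 391 miRNAs. Without scaling 6 were higher and 5 lower, against 14 and 102, and the median over all 391 was -0.14. Without normoxic EB array 1, normoxic EB array 2 or hypoxic EB array 2, in turn, the entries' median log2 change was 0.43, 0.45 and 0.35. Over all 391 it was 0.07, 0.09 and 0.04. With every undetected miRNA kept in the fit 3 entries were higher and 0 lower, against 10 and 7 of all 391. The hypoxic EB arrays also differed from each other. After scaling, 43 of the 44 entries read higher on array 2, with a median log2 difference of 0.18. Over all 391 miRNAs 281 read higher on array 2, with a median of 0.08. Of the 270 entries numbered below 1000, 166 did, with a median of 0.02. Of the 74 entries numbered from 1000 up to but not including 5000, 70 did, with a median of 0.17.

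Hypoxic EBs were also compared with mESCs, which joins both steps and shares its arrays with both comparisons above. Of the 44 entries, 31 were higher in hypoxic EBs and 6 lower, where over all 391 miRNAs 38.1% were higher and 40.7% lower, and the median log2 change was 0.56 against -0.07. For 39 of the 44 the 2 groups had no overlapping values, where this held for 92.8% of all 391 miRNAs. The largest rise was that of miR-6405, which had mESC signals of 6.21 and 13.7, normoxic EB signals of 12.2 and 13.5, and hypoxic EB signals of 22.7 and 25.8. The 2 mESC arrays differed from each other by more than the normoxic EB arrays did, and the 2.63-fold change (95% CI 1.27 to 5.44, adjusted p = 0.029) was lost without any 1 of the 4 EB arrays. It was followed by miR-6354 at 2.33-fold (95% CI 1.56 to 3.50, adjusted p = 0.00743), lost without hypoxic EB array 2.

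The changes of miR-6351 (1.99-fold, 95% CI 1.58 to 2.51, adjusted p = 0.0026), miR-5622-3p (1.98-fold, 95% CI 1.70 to 2.30, adjusted p = 0.000952) and miR-6391 (1.96-fold, 95% CI 1.79 to 2.15, adjusted p = 0.000395) followed. The entry miR-6394 had mESC signals of 7.62 and 8.75, normoxic EB signals of 11.4 and 10.4, and hypoxic EB signals of 14.8 and 17.5, 1.97-fold higher at the end than in mESCs (95% CI 1.57 to 2.47, adjusted p = 0.0026). These 4 changes were kept in every alternative. The entries that were lower were miR-6348, 1.92-fold (95% CI 1.76 to 2.09, adjusted p = 0.000395), and, by 1.40-fold or less, miR-5097, miR-5099, miR-6366, miR-5117-3p and miR-6412. Of these 6, only the fall of miR-6348 kept its direction without scaling, where 37 entries were higher and 1 lower, while under hur scaling 36 were higher and 1 lower. Without either mESC array 3 entries were lower.

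Within the 44, the order of the groups followed a few patterns. The entries miR-5109, miR-5622-3p, miR-6349, miR-6351, miR-6378, miR-6385, miR-6391 and miR-6394 rose at both steps. The entries miR-6238, miR-6243, miR-6348 and miR-6401 fell from mESCs to normoxic EBs and were higher again in hypoxic EBs. Without scaling, the second-step calls of miR-5109, miR-6243, miR-6348, miR-6349, miR-6351, miR-6378, miR-6385, miR-6391, miR-6394 and miR-6401 were lost. Of the entries that rose at both steps, only miR-6391 kept both calls whichever single array was left out. The first-step call of miR-5622-3p was lost without any 1 of the mESC or normoxic EB arrays, and that of miR-6394 without any 1 of the 6 arrays, with a log2 change of -0.03 under quantile normalization. The 5 entries miR-5100, miR-5103, miR-6368, miR-6370 and miR-6402 passed the threshold in no comparison. Both hypoxic EB arrays lay above the other 4 arrays for 31 of the 44 entries and below them for 3, where 38.6% of all 391 miRNAs lay above and 32% below.

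**Figure D3:**
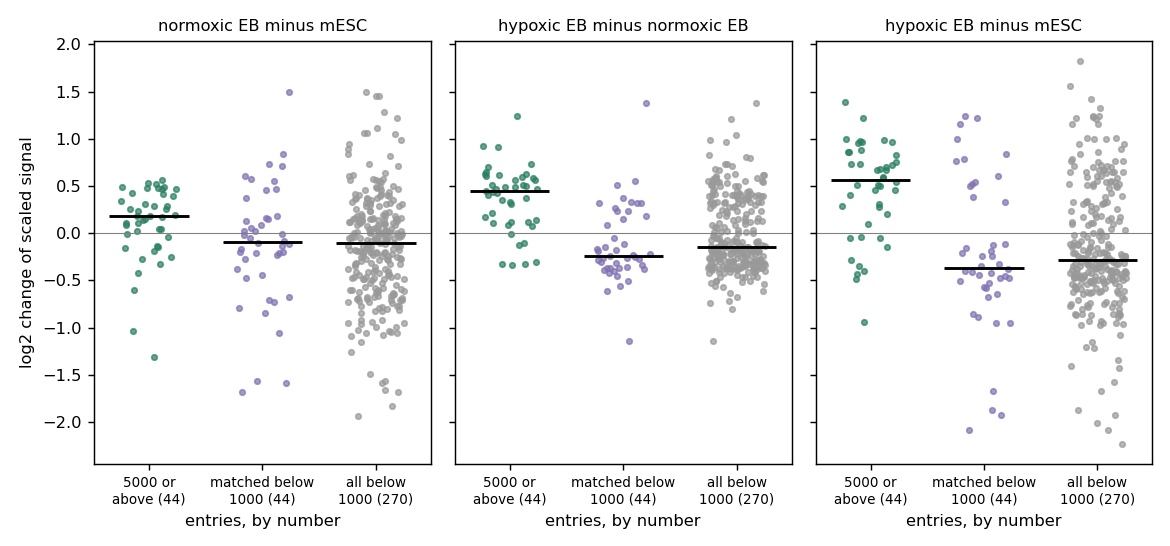
Log2 change of scaled signal (vertical axis) in the 3 comparisons for the 44 entries numbered 5000 or above, their 44 matched entries and all 270 entries numbered below 1000, all detected on all 6 arrays. Points are miRNAs and bars are medians, which for the high-numbered entries were 0.18, 0.44 and 0.56, and for the matched entries -0.09, -0.24 and -0.37.

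Each of the 44 entries, from the brightest down, was set beside the entry numbered below 1000 that was nearest to it in mean log2 signal and not yet used. The median distance was 0.02 log2 units, but the 5 brightest were left with matches over 0.5 away, mostly members of the miR-290 cluster. Of the 44 matched entries, 9 were higher and 13 lower in normoxic EBs than in mESCs, with a median log2 change of -0.09. From normoxic to hypoxic EBs 8 were higher and 25 lower, with a median of -0.24, and from mESCs to hypoxic EBs 13 were higher and 27 lower, with a median of -0.37. The 270 entries numbered below 1000 had medians of -0.11, -0.15 and -0.28. The shift was not particular to the numbers from 5000: the 74 entries numbered from 1000 up to but not including 5000 had medians of 0.21, 0.38 and 0.55.

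The difference between the 2 sets within an array does not depend on any scaling by a single factor. The mean log2 signal of the 44 entries minus that of their matches gave mESC values of -0.13 and -0.03, normoxic EB values of 0.09 and 0.19, and hypoxic EB values of 0.54 and 0.68. The 3 groups did not overlap, and the group means differed by 0.22 for the first step and 0.47 for the second. In the first step 4 of the 44 matched entries fell 2-fold or more and 1 rose as much. The 4 were miR-302a-5p, miR-302b-3p, miR-302c-3p and miR-367-3p, with log2 changes of -1.06, -1.57, -1.59 and -1.68. Their part in the difference of 0.22 was not tested. The 6 entries thought to come from rRNA or tRNA and the other 38 were each set against the mean of all 44 matched entries, not against their own matches. For the 6 the difference was -0.20 and -0.08, then 0.18 and 0.27, then 0.79 and 0.91. For the other 38 it was -0.11 and -0.02, then 0.07 and 0.18, then 0.50 and 0.65. Both sets stepped up in the same order of groups. A ratio within an array shows unequal change of the 2 sets, not which of them changed. With the 39 pairs that lay within 0.5 log2 units, the differences between group means were 0.21 and 0.50.

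**Figure D4:**
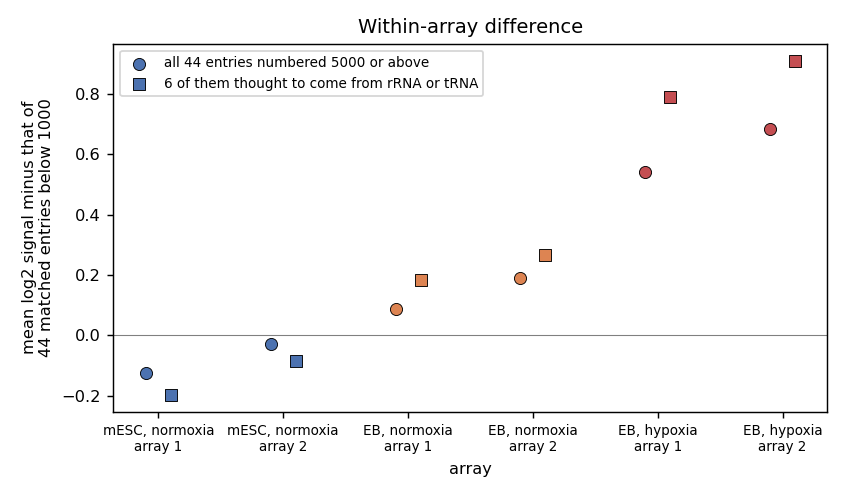
Mean log2 signal of the high-numbered entries minus that of all 44 matched entries numbered below 1000 (vertical axis) on each of the 6 arrays (horizontal axis). Circles are all 44 entries, and squares are the 6 thought to come from rRNA or tRNA, set against the same 44 matched entries. Values rise from -0.13 and -0.20 on mESC array 1 to 0.68 and 0.91 on hypoxic EB array 2.

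The 14 entries detected on fewer than 6 arrays were dim, between 2.88 and 18.9, and all were detected on both hypoxic EB arrays. Since they entered through the group where they were detected, no fold or count of changes is given for them. The entry miR-5110 was detected only on the hypoxic EB arrays, at 8.08 and 4.33. The entries miR-5104, miR-5113, miR-5133, miR-6239, miR-6386, miR-6418-5p and miR-6537-3p were also detected on 1 normoxic EB array, array 2 in each case. The entries miR-5135, miR-6388 and miR-6399 were detected on all 4 EB arrays and neither mESC array, and the brightest of them, miR-6388, had normoxic EB signals of 12.7 and 14 and hypoxic EB signals of 16 and 18.9.

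The remaining 3 had other patterns. The entry miR-5116 was detected on both mESC arrays at 8.31 and 7.04, on neither normoxic EB array, and on both hypoxic EB arrays at 7.97 and 4.23. The entry miR-5118 was detected on every array but mESC array 1, at 2.88 to 7.97. The entry miR-6415 was detected at 5.83 on mESC array 1 alone, at 10.1 and 12 on the normoxic EB arrays and at 3.86 and 4.37 on the hypoxic ones, with both normoxic EB arrays above both hypoxic EB arrays. Of the 54 entries numbered below 1000 with such partial detection, 38 (70.4%) were detected on both hypoxic EB arrays. Just outside the rule lay 5 entries detected on 1 hypoxic EB array each: miR-5046 at an unscaled 4.31 and miR-5132-3p at 4.57 on array 2, and miR-5616-3p at 9.24, miR-6345 at 9.14 and miR-6373 at 4.31 on array 1. By number, the nearest detected entries below the limit were miR-3960, miR-3963 and miR-3968, and those above it miR-5097, miR-5099 and miR-5100.

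The letters of the sequences shown above are rich in G. Over the 31 of the 44 entries with a sequence, the median share of G was 42.1%, against 25% over 197 of the 270 entries numbered below 1000 and 23.8% over 34 of the 44 matched entries. A run of 4 or more G was present in 14 of the 31 sequences, as in miR-5126 and miR-6366, and in 20 of the 197. Fewer than 80% of the entries in the lists detected on all 6 arrays had a sequence (70.5% of the 44). Any check of the changes against base composition is therefore void, and the values that follow describe only those with a sequence. Entries numbered below 1000 with at least 42.1% G (23) had median log2 changes of 0.29, 0.33 and 0.60 in the 3 comparisons as ordered above, and those with less G (174) had -0.06, -0.19 and -0.32. The high-numbered entries had 0.29, 0.38 and 0.66 at or above that share (16) and 0.10, 0.51 and 0.50 below it (15). At or above that share the medians of older and high-numbered entries lay close together. Below it those of the high-numbered entries were above 0 and those of the older entries below 0. The part of base composition in the changes was not tested. Across miRNAs, Spearman's rho between the share of G and the change from mESCs to hypoxic EBs was 0.28 over the 31 entries and 0.41 over the 197, and with the change from normoxic to hypoxic EBs it was 0.02 and 0.33, as a description of probes that share the same 6 arrays.

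**Figure D5:**
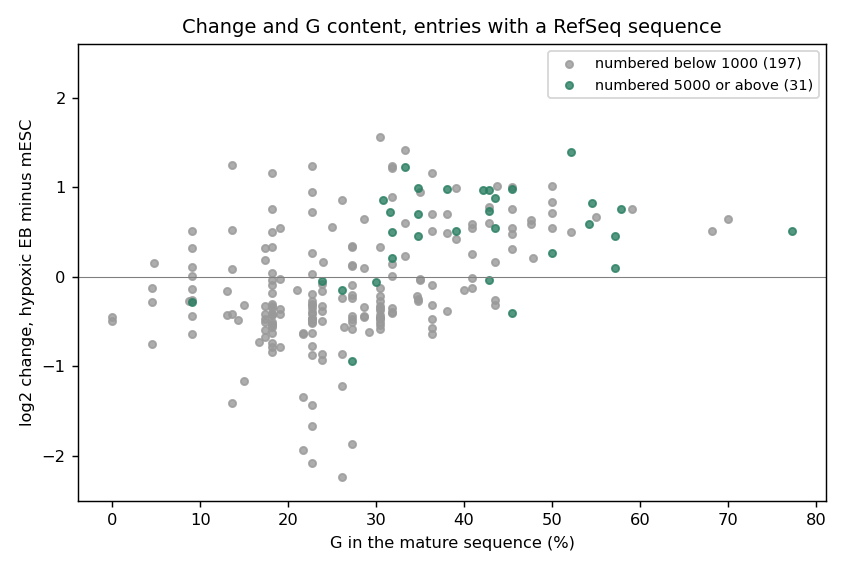
Log2 change from mESCs to hypoxic EBs (vertical axis) against the share of G in the RefSeq mature sequence in percent (horizontal axis), for 31 high-numbered entries and 197 entries numbered below 1000. Points are miRNAs, and the high-numbered entries lie mostly to the right, with a median share of 42.1% against 25%.

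Few of the high-numbered entries shared a seed with another miRNA of the array, 11 of the 44 with a sequence. The seed of miR-6394 is that of miR-125a-5p and miR-125b-5p, a conserved family expressed in many differentiating tissues. The log2 changes of miR-6394 in the 3 comparisons were 0.41, 0.56 and 0.98, those of miR-125b-5p 1.46, -0.30 and 1.16, and those of miR-125a-5p -0.44, -0.29 and -0.73, so entries with this seed did not move together. The entries miR-6239 and miR-6351 share a seed. The entries miR-6368 and miR-6405 share a seed and 13 letters in a row, UGGGAAGCAGUGG, and cross-hybridisation between their probes was not tested. The log2 changes of miR-6368 were 0.10, -0.01 and 0.09, and those of miR-6405 were 0.48, 0.92 and 1.39, of which only the last passed the threshold, and the difference between the 2 entries was not tested. The seed of miR-6349 is that of the muscle miRNA miR-206-3p, which was detected on 2 arrays only, and the seed of miR-6240 is that of miR-330-3p, which was detected on none.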

How the data were processed

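Per the file headers, the deposited scanner files give for each of 1268 features, 21 of them controls, an intensity (the total gene signal) and a flag for detection, with undetected miRNAs at 0.1. The authors also deposited a normalized ratio to a control value, used as an alternative, in a table with 6 further columns of 2 arrays that match no listed sample and were not used. The labelling kit named in the labels is one for cRNA, and its use on miRNA arrays is unsettled.

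Signals were divided by the array's 75th percentile, taken over 391 miRNAs that every array detected, multiplied by their mean, given a floor of 2.91 and log2-transformed. A single limma 3.58.1 fit (R 4.3.3; residual df 3, prior df 1.43) over the 484 miRNAs detected on both arrays of a group gave all adjusted p-values (Benjamini-Hochberg per comparison, threshold 0.05), and was tested on simulated data. Figures used Python 3.11.15. The 3 comparisons share arrays. The fit did not pair arrays by replicate number. Correlations of same-numbered deviations were -0.03, 0.15 and 0.11, which cannot settle whether the arrays were paired.

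The members and lists were chosen with earlier results of these data known. Named were the entries thought to come from rRNA or tRNA, the 10 brightest, up to 6 largest rises and falls past the threshold per comparison, those on both arrays of some group but neither array of another, and entries at the rule's edge; others are named after their values were seen. Counts over members cover the 44 detected on all arrays. Alternatives were other scalings, floors, filters, matching, a replicate block and leaving out each array.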

Additional observations from a re-analysis of the deposited data

How the results depend on the processing

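The median log2 change of the 44 entries stayed above 0 in all 3 comparisons under every alternative. The counts moved with scaling and filter, and the medians also with single arrays. For normoxic EBs against mESCs, 11 entries were higher and 5 lower. The higher count was 20 under median scaling, 18 under quantile normalization and 23 under hur scaling. Without scaling and with the authors' normalized ratio alike, 39 were higher and 1 lower, with a median of 0.91. With no filter on dim miRNAs 1 was higher and 3 lower. Leaving out 1 array gave 3 to 15 higher, 3 to 6 lower and medians of 0.09 to 0.21.

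For hypoxic against normoxic EBs, 26 were higher and 2 lower. The lower count was 4 with the 75th percentile over all mouse miRNAs, 4 under median scaling, 5 under quantile normalization (median 0.29), 0 under hur scaling (median 0.68), 1 with the floor 4 times as high and 4 with only miRNAs detected on all 6 arrays. Without scaling and with the authors' ratio, 6 were higher and 5 lower, with a median of 0.21. With no filter 3 were higher and 0 lower. Leaving out 1 array gave 12 to 26 higher, 0 to 5 lower and medians of 0.35 to 0.52.

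For hypoxic EBs against mESCs, 31 were higher and 6 lower. The lower count was 1 without scaling and with the authors' ratio (median 1.06), 1 under hur scaling (median 0.90) and 3 with no filter, where 20 were higher. Leaving out 1 array gave 24 to 29 higher, 3 to 7 lower and medians of 0.48 to 0.67.

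Scalings moved the median of all 391 miRNAs, to 0.73, -0.14 and 0.42 without scaling and to 0.11, 0.32 and 0.27 under hur scaling. The members' median minus the matched entries' median was 0.27, 0.68 and 0.93, which by construction no scaling by a single factor changes. It was 0.21, 0.58 and 0.83 under quantile normalization and 0.17, 0.64 and 0.85 with the floor 4 times as high. Leaving out 1 array gave 0.15 to 0.34 for normoxic EBs against mESCs. Without the filter, many undetected miRNAs with no measured spread enter the fit by construction. The cause of the other shifts was not tested.

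Single entries that changed direction did so without scaling and with the authors' ratio, in log2: miR-6238 (0.30), miR-6243 (0.47) and miR-5099 (0.13) in normoxic EBs against mESCs, and miR-6366 (0.10), miR-5097 (0.012), miR-5099 (0.065), miR-5117-3p (0.15) and miR-6412 (0.21) in hypoxic EBs against mESCs. The last also turned under hur scaling (0.057), and miR-6394 turned in normoxic EBs against mESCs under quantile normalization (-0.032). Of the named calls, 2 of 14, 1 of 19 and 15 of 26 in the 3 comparisons held in every alternative. With the replicate number as a block, 10, 27 and 30 entries were higher and 4, 2 and 6 lower, and of the named calls only those of miR-6243 (adjusted p = 0.0596) and miR-6394 (adjusted p = 0.0612) in normoxic EBs against mESCs were lost. The matched comparison restricted to pairs within 0.5 log2 units was chosen after seeing the data. Dim entries lie near the lowest detected signal, where 2 arrays per group limit what can be called.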

Other observations

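Of 1679 mature mouse sequences in RefSeq, 2 start with UCGAA (0.119%), and both belong to entries described here, miR-5100 and miR-6412. Those letters also stand in the T loop of many tRNAs, which is background and was not tested on these data. Neither entry was on the list thought to come from rRNA or tRNA, and neither was higher in hypoxic EBs than in mESCs after scaling to the 75th percentile: the log2 change of miR-5100 was -0.05 (adjusted p = 0.735) and that of miR-6412 was -0.28 (adjusted p = 0.0384), a call lost without any 1 of the mESC or normoxic EB arrays. Both directions turned without scaling, to 0.45 for miR-5100 and 0.21 for miR-6412, and under hur scaling, to 0.29 and 0.06. Under quantile normalization the change of miR-5100 was -0.27 (adjusted p = 0.000279). The shared letters were noted after the values were seen.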
